A study of Homo sapiens with 6 samples.

Results

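AXIN2, NKD1, NOTUM, RNF43, ZNRF3, SP5 and APCDD1 are genes that Wnt/beta-catenin signalling switches on and whose products, in turn, restrain that signalling. They were chosen by symbol, and all 7 were found among the 22496 gene symbols listed in at least 1 of the 6 libraries. The study compared 3 libraries of LoVo cells labelled SHARPIN knockout with 3 labelled non-target, the control genotype, and no treatment or time point is labelled in either group. LoVo is an established human colon adenocarcinoma line, known to carry a truncated APC. SHARPIN belongs to LUBAC, the enzyme complex that builds linear ubiquitin chains. How the gene was disrupted, and whether the cells are 1 clone or a pool, is not stated in the labels. They also do not say that replicates are separate cultures, so the spread behind each p-value may be technical.

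In the Wnt pathway, a secreted Wnt protein binds Frizzled and LRP receptors and, through Dishevelled, stops a destruction complex of APC, axin and kinases from marking beta-catenin for breakdown. Beta-catenin then joins TCF/LEF factors on DNA and raises transcription of target genes. Among these targets are inhibitors at each level of the pathway, and in the intestinal crypt their transcripts serve as a readout of the signal. Loss of APC function keeps beta-catenin high with little need of a ligand, and most colorectal tumours carry such a loss.

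Expression is given as FPKM, a fragment count divided by transcript length and by library size, so levels of different genes can be set side by side. Estimated depth was alike, at 21300000 to 22200000 fragments per knockout library and 21100000 to 22500000 per non-target library. SHARPIN transcript stood at 7.55, 11.9 and 18.0 FPKM in the libraries labelled knockout, replicates 1 to 3, and at 11.9, 13.9 and 12.9 FPKM in non-target replicates 1 to 3. It did not pass the test (log2 fold change -0.12, SE 0.26, limma adjusted p = 0.827). A disrupted gene can keep its transcript, and the level is no check of the labels, whose groups are used as given. The sum of FPKM over all genes was 522919 in knockout replicate 3 and between 416852 and 431264 in the other 5 libraries.

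The labelled cell type was checked with 10 markers of colon epithelium, of which 8 stood at 1 FPKM or more in every library. Their summed level was 4808 to 9657 FPKM in knockout and 4074 to 5227 FPKM in non-target libraries. HNF4A, CDX1, VIL1 and CDH17 were lower in knockout and KRT19 higher (limma, adjusted p at most 0.00142 for each). CDX1 and VIL1 reached 1 FPKM, the level that testing required in 3 libraries, only in non-target libraries. Their direction was thus set by that filter. Of 8 fibroblast markers, 7 were highest in non-target replicate 1. Without LUM, these 7 summed to 0.427, 0.098 and 0.083 FPKM in knockout replicates 1 to 3, against 15.2, 0.454 and 0.324 FPKM in non-target replicates 1 to 3. LUM itself was at 0.385, 0.199 and 0.151 FPKM in knockout and at 5.03, 7.52 and 7.45 FPKM in non-target libraries. Endothelial markers summed to at most 0.106 FPKM in knockout and 0.679 FPKM in non-target libraries. Leukocyte markers summed to 31.0 to 38.3 FPKM in knockout and 64.6 to 91.4 FPKM in non-target libraries, nearly all of it LYZ and CD68, while CD3E, MS4A1 and TYROBP were listed in no library. In bulk RNA, fewer cells of a type and less RNA per cell cannot be told apart. Non-target replicate 1 thus stands apart in fibroblast markers from replicates 2 and 3, which were nearly alike (Pearson r across genes 0.997). No p is given, since genes are not replicates. Non-target replicate 1 correlated with replicates 2 and 3 at 0.974 and 0.975. The lowest correlation within a group, 0.946, was between knockout libraries. The changes of RNF43 and APCDD1 are given with and without non-target replicate 1. Of 1369 genes called without non-target replicate 1, 70.4% had that library nearer to the knockout mean than replicates 2 and 3 (log2 scale). Of all tested genes, 41.6% did. The 1369 genes were picked by the distance of knockout from non-target replicates 2 and 3. This by itself favours such an order, so the shares cannot be compared. Of the feedback genes, AXIN2, NKD1, RNF43 and APCDD1 had this order. NOTUM and SP5 had non-target replicate 1 farthest from the knockout mean, and ZNRF3 had it between. The part of non-target replicate 1 in the non-target means was not tested beyond leaving it out.

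Of the 7 feedback genes, AXIN2, NKD1 and APCDD1 rose in the knockout libraries, none fell, and ZNRF3, SP5, RNF43 and NOTUM did not pass the test. The count of 3 that rose compares with 6.26% of all 13092 tested genes that rose, 5.93% that fell and 12.2% called in either direction (limma, adjusted p below 0.05). In 5 of the 7 every knockout library lay above every non-target library, where 16.5% of all tested genes showed this order, 15.7% the opposite one and 32.1% either. The median log2 fold change of the 7 was 0.61, and that of all tested genes 0.02. Added together, the 7 genes came to 213, 177 and 154 FPKM in knockout replicates 1 to 3, against 93.5, 81.3 and 83.0 FPKM in non-target replicates 1 to 3. AXIN2 and APCDD1 together made up 82.1%, 79.5% and 80.2% of this sum in knockout replicates 1 to 3, against 72.2%, 60.8% and 59.8% in non-target replicates 1 to 3.

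**Figure D1:**
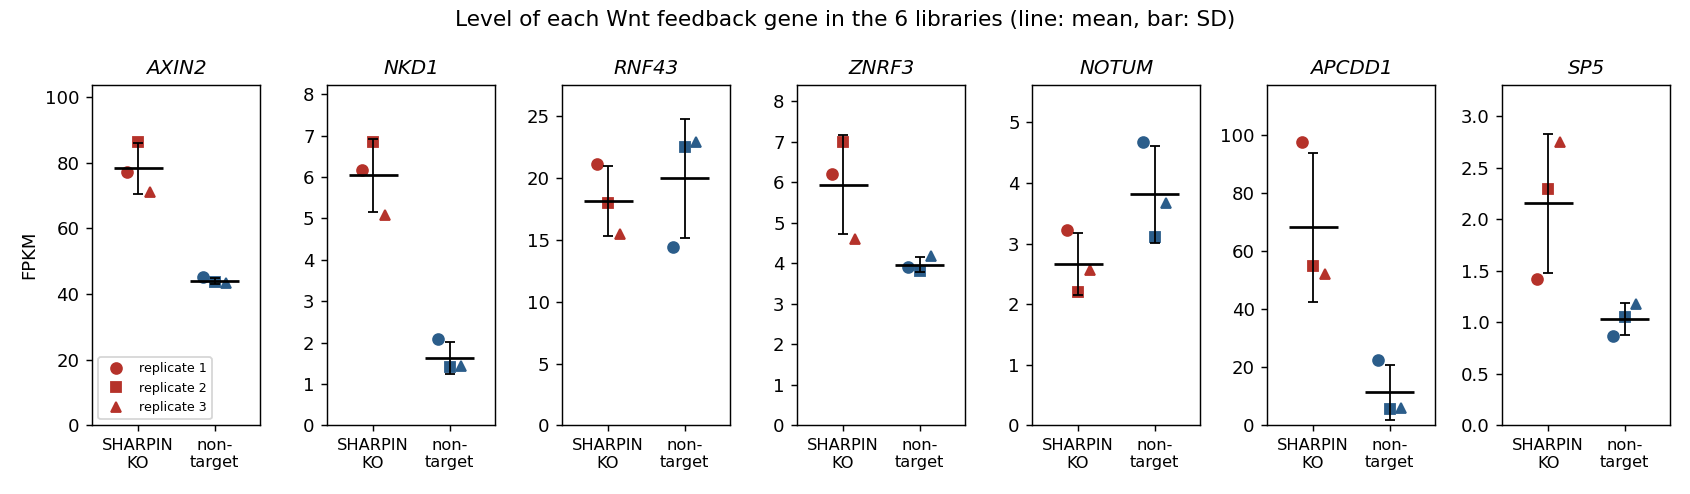
FPKM of each gene in the 3 SHARPIN knockout (red) and 3 non-target (blue) libraries, one panel per gene with its own axis from 0; symbols mark replicates, lines the mean and bars the SD. AXIN2, NKD1, ZNRF3, APCDD1 and SP5 show no overlap between groups, whereas RNF43 and NOTUM overlap.

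AXIN2 encodes a scaffold of the destruction complex and is widely used as a reporter of beta-catenin activity. It lies on chromosome 17 at 63524681 to 63557766, minus strand (GRCh37). Its level was 77.3, 86.4 and 71.1 FPKM in knockout replicates 1 to 3, against 45.1, 43.7 and 43.5 FPKM in non-target replicates 1 to 3. All 3 knockout libraries were higher than any non-target library, and the lowest of them was 1.58 times the highest non-target value. The means were 78.3 ± 7.72 FPKM in knockout and 44.1 ± 0.893 FPKM in non-target (SD, n = 3 each), with a log2 fold change of 0.81, with an SE of 0.16 (limma adjusted p = 0.00796). AXIN2 shares 1316 exonic bases with ENSG00000266076, a protein-coding gene on the same strand with no value in any library. These bases cannot be assigned to either gene. The non-target values of AXIN2 lay closer together, relative to their level, than those of the other feedback genes. The call was lost when non-target replicate 2 (adjusted p = 0.0520) or replicate 3 (adjusted p = 0.0575) was left out, and when these near-identical libraries were counted as 1 sample (adjusted p = 0.0539), with the log2 fold change at 0.80 each time.

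AXIN1, the constitutive paralog that AXIN2 can replace in the complex, stood at 20.3, 26.0 and 29.0 FPKM in knockout replicates 1 to 3 and at 22.1, 19.1 and 19.8 FPKM in non-target replicates 1 to 3. These ranges overlap, and AXIN1 did not pass (log2 fold change 0.28, limma, adjusted p = 0.372). The ratio of AXIN2 to AXIN1 within a library, which no scaling of libraries can alter, was 3.81, 3.32 and 2.45 in knockout and 2.04, 2.29 and 2.20 in non-target replicates 1 to 3. The knockout ratios were all higher, with an exact two-sided permutation p of 0.1, the smallest that 3 libraries against 3 allow.

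NKD1 encodes a cytoplasmic protein that binds Dishevelled and dampens the signal below the receptor. The gene spans 50582307 to 50683160 on chromosome 16, plus strand (GRCh37). It stood at 6.17, 6.85 and 5.09 FPKM in knockout replicates 1 to 3, against 2.09, 1.40 and 1.43 FPKM in non-target replicates 1 to 3. The lowest knockout library held 2.44 times the highest non-target value, the widest gap among the 7 genes. The mean was 6.04 ± 0.888 FPKM in knockout and 1.64 ± 0.388 FPKM in non-target (SD, n = 3 each), or 3.68 times as high, and the log2 fold change was 1.42, with an SE of 0.19 (limma adjusted p = 0.00100). NKD1 kept its call under all 18 alternatives that held it.

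Its paralog NKD2, which also binds Dishevelled, moved the same way at a higher level. NKD2 stood at 61.6, 65.8 and 83.2 FPKM in knockout replicates 1 to 3, against 23.0, 17.8 and 16.7 FPKM in non-target replicates 1 to 3 (log2 fold change 1.82, SE 0.19, limma adjusted p = 0.000273). Every knockout library was above every non-target one. The ratio of NKD1 to NKD2 was 0.10, 0.104 and 0.0612 in knockout and 0.0909, 0.0787 and 0.0858 in non-target replicates 1 to 3, so it overlapped between the groups.

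RNF43 and ZNRF3 are transmembrane ubiquitin ligases that tag Frizzled receptors for removal from the cell surface. R-spondins, bound to LGR4, LGR5 or LGR6, draw the ligases themselves away and so sustain the receptors. RNF43 (chromosome 17, 56431037 to 56494956, minus strand, GRCh37) was at 21.1, 18.0 and 15.5 FPKM in knockout replicates 1 to 3 and at 14.4, 22.5 and 22.9 FPKM in non-target replicates 1 to 3. The groups overlapped because non-target replicate 1 was lower than all knockout libraries, while non-target replicates 2 and 3 were higher than all of them. The log2 fold change was -0.11, with an SE of 0.21 (limma adjusted p = 0.798), and -0.32 without non-target replicate 1 (adjusted p = 0.363).

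RNF43 shares 4326 exonic bases with ENSG00000285897, a protein-coding gene on the same strand that the annotation gives by identifier alone. That gene has no value in any library, and whether the counting held it is not stated. RNF43 fragments may be split between the pair, so the level of RNF43 is uncertain. TSPOAP1-AS1, on the opposite strand, shares 345 exonic bases with RNF43. TSPOAP1-AS1 stood at 4.02, 7.63 and 8.85 FPKM in knockout replicates 1 to 3, and at 4.38, 9.40 and 9.57 FPKM in non-target replicates 1 to 3. It was thus low in replicate 1 of both groups. Whether the counting used strand is not stated, so reads of the shared bases cannot be assigned to either gene.

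ZNRF3 (chromosome 22, 29279560 to 29453476, plus strand, GRCh37) had 6.21, 7.001 and 4.60 FPKM in knockout replicates 1 to 3 and 3.899, 3.82 and 4.17 FPKM in non-target replicates 1 to 3. Knockout replicate 3 was 1.10 times the highest non-target library, and the other knockout libraries lay further above. The log2 fold change was 0.47, with an SE of 0.19 (limma adjusted p = 0.148), and the gene did not pass with a replicate block either. Scaled as TPM, which sums to the same total in every library, knockout replicate 3 was below all non-target libraries, at 8.80 TPM against 9.24, 9.06 and 9.68 TPM in non-target replicates 1 to 3. An antisense gene, ZNRF3-AS1, was at 0.119 FPKM or less in every library and shares no exonic base with ZNRF3.

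The balance between the ligases can be given as a ratio within each library. The ratio of ZNRF3 to RNF43 was 0.294, 0.390 and 0.297 in knockout replicates 1 to 3, against 0.270, 0.170 and 0.182 in non-target replicates 1 to 3 (exact two-sided permutation p = 0.1, the smallest possible). All knockout ratios were above all non-target ratios, with non-target replicate 1 close to knockout replicates 1 and 3. The smallest p possible here is above 0.05, so no difference in the ratio is called.

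NOTUM encodes a secreted esterase that removes the lipid from Wnt proteins and so inactivates them outside the cell. It maps to chromosome 17 at 79910383 to 79919716, minus strand (GRCh37). The gene was at 3.22, 2.21 and 2.56 FPKM in knockout replicates 1 to 3 and at 4.68, 3.10 and 3.66 FPKM in non-target replicates 1 to 3. Only knockout replicate 1 reached into the non-target range, above non-target replicate 2. The means were 2.66 ± 0.517 FPKM in knockout and 3.82 ± 0.801 FPKM in non-target (SD, n = 3 each), and the log2 fold change of -0.39 ± 0.19 (SE) did not pass (limma, adjusted p = 0.248). At its longest annotated transcript, NOTUM rested on about 105 to 159 fragments per knockout library and 146 to 234 per non-target library. NOTUM shares 148 exonic bases with ENSG00000235296, a non-coding gene on the opposite strand with no value in any library.

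APCDD1 encodes a membrane glycoprotein that binds Wnt and LRP5 and inhibits signalling at the receptor. It showed the largest change of the 7, larger in size than that of 99.5% of all tested genes. The gene lies on chromosome 18 at 10454632 to 10489946, plus strand (GRCh37). Its level was 97.6, 54.7 and 52.1 FPKM in knockout replicates 1 to 3, against 22.3, 5.74 and 6.16 FPKM in non-target replicates 1 to 3. The groups did not overlap, but in each the replicate 1 library was far above the others, 1.78 times the median in knockout and 3.63 times in non-target.

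The mean of APCDD1 was 68.1 ± 25.5 FPKM in knockout and 11.4 ± 9.47 FPKM in non-target (SD, n = 3 each), with a log2 fold change of 2.67, with an SE of 0.45 (limma adjusted p = 0.00373). Without non-target replicate 1, the library with the fibroblast transcripts, the log2 fold change was 3.26 (adjusted p = 0.000633), and without both replicate 1 libraries, an alternative chosen after seeing the data, it was 2.97 (adjusted p = 0.000288). The part of those transcripts in the level of replicate 1 was not tested, and the change is as large without that library. On the gene's own spread, with nothing borrowed from other genes, APCDD1 did not pass (adjusted p = 0.114). It passed without any single library (adjusted p at most 0.0321). Its paralog APCDD1L was at 0.025 FPKM or less in every library.

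SP5 encodes a zinc-finger transcription factor of the Sp family, a direct beta-catenin target known to repress other Wnt targets in human pluripotent stem cells. It lies on chromosome 2 at 171571847 to 171574588, plus strand (GRCh37). It was the lowest of the 7 in non-target cells, with 1.42, 2.29 and 2.75 FPKM in knockout replicates 1 to 3 and 0.868, 1.05 and 1.18 FPKM in non-target replicates 1 to 3. Replicate 1 was the lowest library in both groups. These levels rest on about 64, 100 and 121 fragments in knockout replicates 1 to 3 and 40, 45 and 54 in non-target replicates 1 to 3, estimated at the longest annotated transcript.

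The mean of SP5 was 2.15 ± 0.678 FPKM in knockout and 1.03 ± 0.157 FPKM in non-target (SD, n = 3 each), 2.09 times as high. The log2 fold change of FPKM + 1, which understates the change of so low a gene, was 0.61 ± 0.19 (SE) and did not pass (limma, adjusted p = 0.0712). It passed with a replicate block (adjusted p = 0.00466, where 25.3% of all genes were called), without knockout replicate 1 (adjusted p = 0.0131), and without both replicate 1 libraries (adjusted p = 0.0182). Without any other single library SP5 did not pass (adjusted p up to 0.193). Of the other Sp factors, the paralog SP6 rose (log2 fold change 0.69, limma, adjusted p = 0.0499), but lost the call without any library except non-target replicate 1 (adjusted p up to 0.234). SP8 was at 1.25 ± 0.211 FPKM in knockout and 0.865 ± 0.0968 FPKM in non-target (adjusted p = 0.299).

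**Figure D2:**
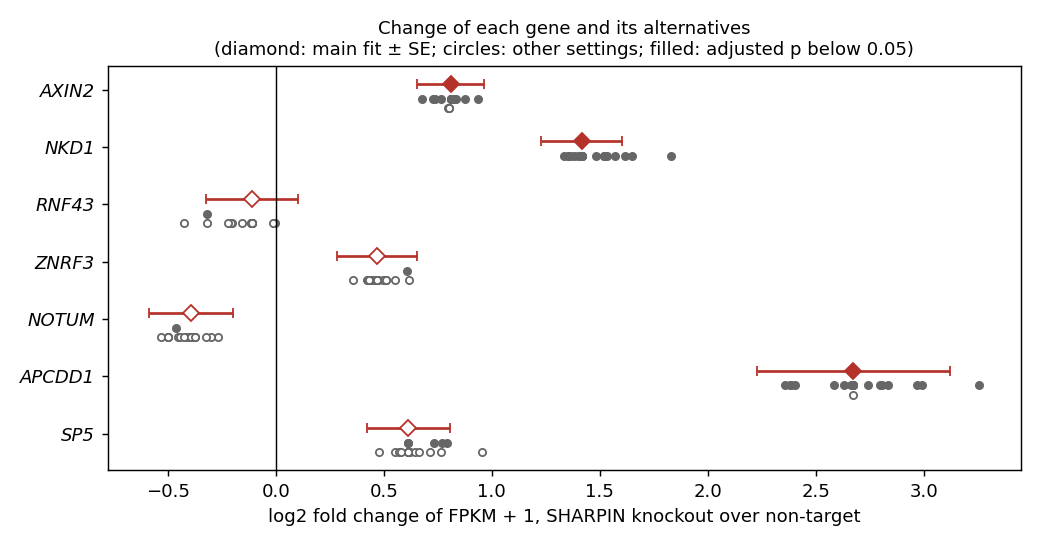
Log2 fold change of FPKM + 1, SHARPIN knockout over non-target, for each gene: the diamond is the main estimate with its SE, grey circles are the other settings, and filled symbols have an adjusted p below 0.05. NKD1 is filled throughout, APCDD1 and AXIN2 mostly, and no gene changes sign.

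Promoter sequences of SP5 and APCDD1 are shown because TCF/LEF factors act on Wnt targets through short DNA motifs, and the windows differ in how many they hold. RefSeq (GRCh38.p14, a later build than that of the files) gave promoter windows for 3 of the 7 genes, SP5, APCDD1 and RNF43. The 250 bases before each start were searched on both strands for the motif CTTTGAA and for its variants that end in AT, TA or TT in place of AA, with capitals marking a match. The SP5 window is chr2:170715087-170715336 and the APCDD1 window chr18:10454385-10454634, both on the plus strand.
SP5: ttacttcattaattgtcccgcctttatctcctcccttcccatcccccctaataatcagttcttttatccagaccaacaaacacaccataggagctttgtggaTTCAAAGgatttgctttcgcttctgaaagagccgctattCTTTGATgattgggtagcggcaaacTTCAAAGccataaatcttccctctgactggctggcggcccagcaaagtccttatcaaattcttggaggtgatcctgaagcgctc
APCDD1: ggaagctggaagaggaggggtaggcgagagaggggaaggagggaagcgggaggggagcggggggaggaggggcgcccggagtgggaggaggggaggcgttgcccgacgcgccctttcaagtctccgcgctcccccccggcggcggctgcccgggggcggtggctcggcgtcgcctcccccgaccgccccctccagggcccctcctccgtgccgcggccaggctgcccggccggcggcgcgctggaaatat

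The SP5 window held 3 matches, CTTTGAA on the minus strand at positions 103 and 167 and CTTTGAT on the plus strand at position 142, counted from 1 at the 5′ end. Of 35093 promoter windows of the same length, 12.0% held at least 1 match and 0.123% held 3 or more. The APCDD1 window held none, nor did either RNF43 window. The APCDD1 window is rich in G and C, at 77.2% against 45.6% for SP5 and a median of 58.0% over all windows. A match is not a bound site, and other elements of these genes were not searched.

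Ordered by level, AXIN2 and APCDD1 led in knockout cells, with ranges that overlapped, followed by RNF43, then NKD1 and ZNRF3, which overlapped, and last NOTUM and SP5, which overlapped. In non-target cells AXIN2 stood alone at the top, RNF43 and APCDD1 overlapped, ZNRF3 and NOTUM overlapped, and NKD1 and SP5 came last without overlapping. Both non-target overlaps rested on replicate 1. In non-target replicates 2 and 3, RNF43 (22.5 and 22.9 FPKM) lay above APCDD1 (5.74 and 6.16 FPKM). ZNRF3 (3.82 and 4.17 FPKM) lay above NOTUM (3.10 and 3.66 FPKM) in these libraries. APCDD1 made up 45.8%, 30.8% and 33.9% of the summed FPKM of the 7 genes in knockout replicates 1 to 3, against 23.9%, 7.05% and 7.42% in non-target replicates 1 to 3.

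Set against AXIN2 in the same library, SP5 overlapped between the groups and the other feedback genes did not. NOTUM to AXIN2 was 0.0417, 0.0255 and 0.0360 in knockout replicates 1 to 3, and 0.104, 0.0710 and 0.0843 in non-target replicates 1 to 3. RNF43 to AXIN2 was 0.273, 0.208 and 0.218 in knockout and 0.320, 0.515 and 0.528 in non-target replicates 1 to 3. For NKD1 to AXIN2 the knockout ratios were 0.0799, 0.0793 and 0.0716 and the non-target ratios 0.0462, 0.0321 and 0.0329. Thus relative to AXIN2, NOTUM and RNF43 were lower and NKD1 higher in all knockout libraries, each with the smallest exact two-sided permutation p possible, 0.1, and SP5 overlapped (p = 0.7). ZNRF3 to AXIN2 was 0.0804, 0.0810 and 0.0647 in knockout and 0.0864, 0.0874 and 0.0960 in non-target replicates 1 to 3, without overlap. APCDD1 to AXIN2 was 1.26, 0.633 and 0.733 in knockout and 0.495, 0.131 and 0.142 in non-target replicates 1 to 3, also without overlap. The smallest p possible is above 0.05, so no difference in these ratios is called.

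**Figure D3:**
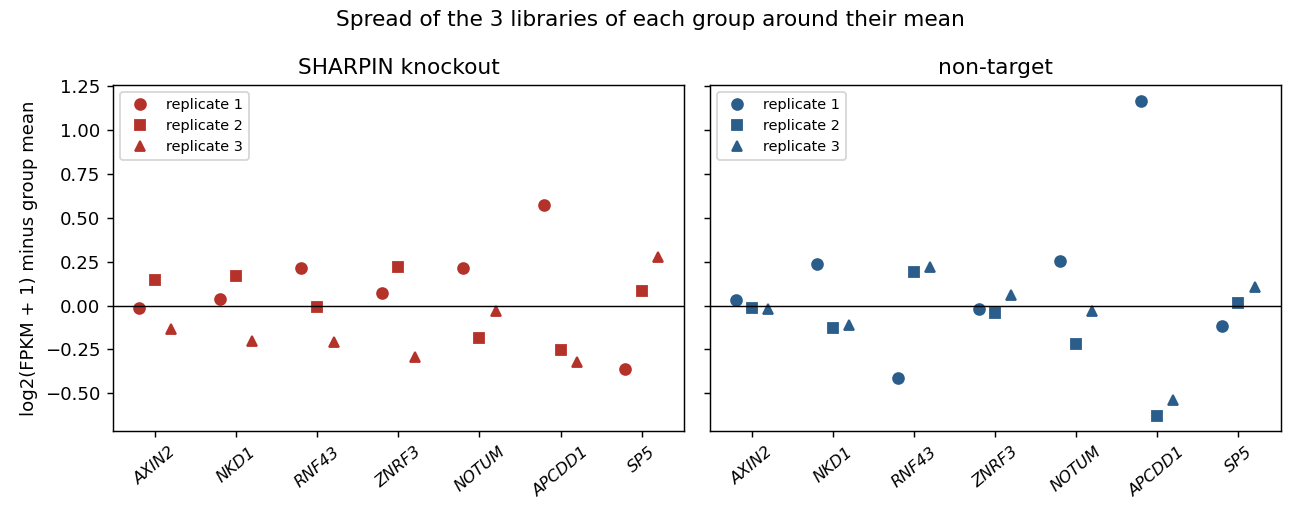
Difference of each library's log2(FPKM + 1) from its group mean, for SHARPIN knockout (left) and non-target (right). Replicate 1 is the highest library of both groups for APCDD1 (0.57 and 1.17) and NOTUM (0.22 and 0.25) and the lowest for SP5 (-0.36 and -0.12), while for RNF43 it is the highest in knockout (0.22) and the lowest in non-target (-0.41).

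Within a group, the spread was not alike for all genes. Replicate 1 of knockout and replicate 1 of non-target departed the same way for APCDD1, NOTUM and SP5 and opposite ways for RNF43, as the plot of deviations from the group mean shows. AXIN2 stayed within 0.15 of its group mean on the log2 scale in all 6 libraries.

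Genes with patterns most like those that rose were sought among all other tested genes, by the root mean square difference of log2(FPKM + 1) profiles centred over the 6 libraries. Nearest to AXIN2 were ARID3A, a DNA-binding protein (0.05), the TCF/LEF family member LEF1 (0.07) and the glycosyltransferase GALNT6 (0.08). Nearest to NKD1 were the growth factor FGF9 (0.06), the glycosyltransferase B3GNT2 (0.09) and the acyltransferase LPCAT2 (0.10). APCDD1 had no neighbour so close, with ODAM, an enamel-associated protein (0.19), RGS9, a regulator of G-protein signalling (0.25), and the keratin KRT20 (0.25). All of these were likewise highest in replicate 1 of both groups, such as ODAM at 65.8, 38.5 and 40.2 FPKM in knockout replicates 1 to 3 and 16.3, 3.13 and 2.77 FPKM in non-target replicates 1 to 3.

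The rest of the pathway was described with 7 lists of genes. Some genes, such as LGR5, DKK1, LEF1, TCF7 and NKD2, are counted in more than a single list. Of all 13092 tested genes, 6.26% rose and 5.93% fell, or 1597 calls. Leaving out knockout replicate 1 or 2 gave 1970 or 1128 calls, and leaving out non-target replicate 2 or 3 gave 958 or 911. A replicate block gave 3309, or 25.3%. List counts are to be read beside these. Among extracellular and membrane inhibitors other than NOTUM and APCDD1, 5 of 7 tested genes rose, 1 fell and 1 did not pass, with a median log2 fold change of 1.21. DKK1, a secreted blocker of LRP6, stood at 206, 237 and 269 FPKM in knockout replicates 1 to 3, against 120, 72.1 and 68.0 FPKM in non-target replicates 1 to 3 (adjusted p = 0.00271, limma). Every knockout library was higher. KREMEN2, a DKK1 co-receptor, averaged 6.81 ± 1.41 FPKM in knockout and 1.55 ± 0.426 FPKM in non-target, and DKK3, a divergent member of that family, 6.75 ± 0.20 FPKM in knockout and 1.54 ± 0.783 FPKM in non-target (SD, n = 3 each). TRABD2A, a membrane protease that clips Wnt proteins, fell to 7.21 ± 2.86 FPKM in knockout, against 21.1 ± 0.926 FPKM in non-target. DKK1, DKK3, KREMEN2 and TRABD2A passed without any single library, whereas KREMEN1 and TPBG lost the call without knockout replicate 2 or non-target replicate 2 or 3, and KREMEN1 also without knockout replicate 1 (adjusted p up to 0.0939 and 0.158).

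Of 31 other Wnt/beta-catenin target genes, 27 were tested, 13 rose, 5 fell and 9 did not pass, with a median log2 fold change of 0.71. TNFRSF19, a member of the TNF receptor superfamily, and NKD2 rose by 1.85 and 1.82 on the log2 scale. CCND1, the cyclin D1 gene, and FGF9 rose by 1.03 and 1.37. The protease MMP7 fell by 1.84 and the stem cell receptor LGR5 by 1.75. MMP7 was at 0.362, 0.083 and 0.123 FPKM in knockout and 3.75, 3.22 and 2.76 FPKM in non-target replicates 1 to 3. MMP7 and CDX1, another of the 5 that fell, reached the filter of 1 FPKM only in non-target libraries, so their direction was set by the filter. MYC was at 66.9 ± 3.63 FPKM in knockout and 69.3 ± 1.32 FPKM in non-target (SD, n = 3 each; limma, adjusted p = 0.877). The count of calls was 11 without knockout replicate 2 and 22 with a replicate block, where 15 rose and 7 fell. TNFRSF19 lost the call without any library except non-target replicate 1 (adjusted p up to 0.149), while NKD2, CCND1, FGF9, MMP7 and LGR5 passed without any single one.

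Receptors and dishevelled moved both ways. Of 19 tested, 2 rose, 3 fell and 14 did not pass, with a median of 0.08. The Frizzled receptors FZD1 and FZD7, of the class that RNF43 and ZNRF3 act on, rose by 1.37 and 1.16 on the log2 scale, with FZD1 at 20.8 ± 2.25 FPKM in knockout and 7.44 ± 0.511 FPKM in non-target (SD, n = 3 each). The R-spondin receptors LGR5 and LGR6 fell by 1.75 and 1.45. LGR5 was at 13.4, 18.0 and 11.9 FPKM in knockout replicates 1 to 3 and at 41.8, 54.6 and 55.8 FPKM in non-target replicates 1 to 3. LGR4, the third R-spondin receptor, was at 8.19 ± 6.30 FPKM in knockout and 14.7 ± 0.921 FPKM in non-target (limma, adjusted p = 0.148). The non-canonical receptor ROR2 fell by 0.75, with 0.389, 0.273 and 0.348 FPKM in knockout and 1.12, 1.24 and 1.38 FPKM in non-target replicates 1 to 3. It reached the filter of 1 FPKM only in non-target libraries, which fixed its direction. LGR4 passed with a replicate block (adjusted p = 1.15e-06). FZD7 and LGR6 lost the call without knockout replicate 2 (adjusted p of 0.0523 and 0.0517). The list gave 3 calls without knockout replicate 2, 8 without knockout replicate 1 and 11 with a replicate block. Of all tested genes, 1128, 1970 and 3309 were called under these settings.

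**Figure D4:**
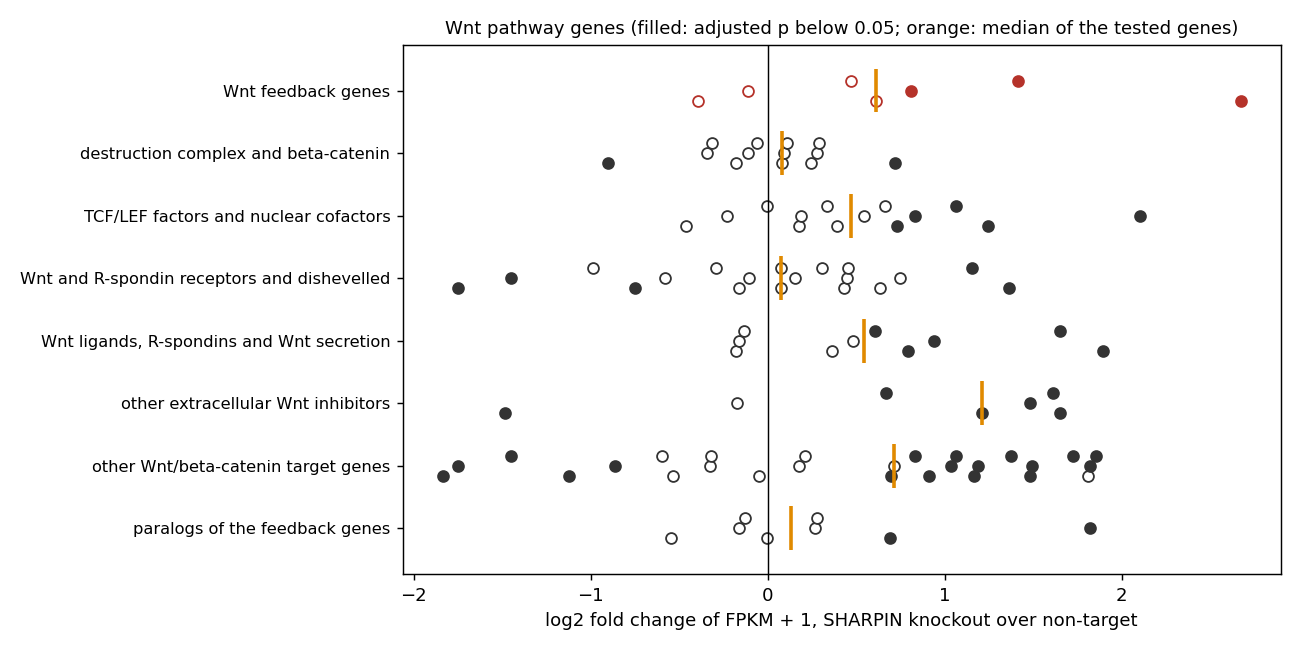
Log2 fold change of FPKM + 1, SHARPIN knockout over non-target, of every tested gene of the 7 feedback genes (red) and 7 further lists (black); filled points have an adjusted p below 0.05 and the orange line is the list's median. The medians run from 0.08 for receptors and for the destruction complex to 1.21 for the other inhibitors.

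Of 14 tested TCF/LEF factors and cofactors, 5 rose, 0 fell and 9 did not pass, with a median of 0.47. The corepressors TLE4 and TLE1 rose by 2.101 and 1.25 on the log2 scale, and the DNA-binding factors TCF7 and LEF1 by 1.06 and 0.83. LEF1 stood at 16.3 ± 1.24 FPKM in knockout and 8.73 ± 0.965 FPKM in non-target (SD, n = 3 each). TCF7L2, the main intestinal TCF, was at 12.4 ± 1.91 FPKM in knockout and 12.4 ± 1.43 FPKM in non-target (adjusted p = 0.988, limma). Only TLE1 and TLE4 passed without any single library. The count was 3 without knockout replicate 2, non-target replicate 2 or non-target replicate 3. With a replicate block it was 8, of which 7 rose and 1, EP300, fell. TCF7 lost the call without knockout replicate 2 or 3 or non-target replicate 1 (adjusted p up to 0.105) and LEF1 when non-target replicate 2 or 3 was left out (up to 0.0594).

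Of 10 tested Wnt ligands and secretion factors, 5 rose, 0 fell and 5 did not pass, with a median of 0.54. The R-spondins of this list were not tested, being at 0.039 FPKM or less in every library. WNT9A averaged 7.11 ± 0.270 FPKM in knockout and 1.19 ± 0.177 FPKM in non-target, and WNT5A, a ligand known mostly for beta-catenin-independent signalling, 24.1 ± 4.08 FPKM in knockout and 7.60 ± 4.43 FPKM in non-target (SD, n = 3 each). PORCN, the enzyme that attaches the lipid NOTUM removes, rose by 0.94 on the log2 scale. WNT9A and PORCN passed without any single library. WNT5A lost the call without knockout replicate 2 (adjusted p = 0.0566), WNT7B without any library (up to 0.172) and WLS without 4 of the 6 (up to 0.232). The count was 2 without knockout replicate 2 and 3 without knockout replicate 1 or non-target replicate 2 or 3, and 6 with a replicate block, which added WNT16 as higher.

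The destruction complex and beta-catenin gave 1 rise, 1 fall and 11 genes short of the threshold among 13 tested, with a median of 0.08. CSNK1E, a casein kinase of the pathway, rose by 0.72 on the log2 scale and APC fell by 0.90, to 1.34 ± 0.662 FPKM in knockout, against 3.27 ± 0.258 FPKM in non-target (SD, n = 3 each). Leaving out 1 library ended each of these calls in 3 of 6 cases (adjusted p up to 0.123), and 0 genes of the list passed without non-target replicate 2 or 3. Beta-catenin (CTNNB1) was at 65.7 ± 5.31 FPKM in knockout and 60.6 ± 0.760 FPKM in non-target (limma, adjusted p = 0.704). Of 8 tested paralogs of the feedback genes, NKD2 and SP6 rose, 0 fell and 6 did not pass, with a median of 0.13. With a replicate block 3 were called, as SP1 also passed, lower in knockout (adjusted p = 0.00893).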

How the data were processed

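Poly-A RNA of 6 LoVo libraries was made into strand-marked cDNA and sequenced on a DNBSEQ instrument, per the labels' protocols. Reads were aligned to hg19 with TopHat2 2.1.1 and FPKM computed with STAR 2.7.10b by the authors, per the submitters' processing notes. The deposited FPKM were used as given, and symbols missing from a library's list were set to 0. Depth was estimated from the smallest step between low values in genes of 1 annotated transcript. It rests on 48 to 70 values per library, so no counting interval is given.

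The test was limma 3.58.1 (R 4.3.3) on log2(FPKM + 1), with robust empirical Bayes and an intensity trend, over the 13092 genes that reached 1 FPKM in 3 or more libraries, two-sided, Benjamini-Hochberg adjusted, at a threshold of 0.05. All 7 feedback genes passed this filter. Feedback genes, gene lists and settings were chosen with earlier results of these data known. From each list, up to 4 called genes with the largest change, or else the gene of smallest p, are named. Others named from the lists were picked after their values were seen. Locations come from GENCODE annotation of GRCh37, to which 89.0% of symbols matched.

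The main fit had no replicate block. Deviations from the group means correlated at 0.547, 0.309 and 0.331 between same-numbered libraries across genes, so an alternative took the numbers as pairs. Replicates 2 and 3 are not told apart (0.320 and 0.321 crossed), so only the match of the replicate 1 libraries stands out. Blocked values stand beside the counts and named genes that they change. Blocked p-values draw on spread borrowed from other genes, as at 9.0e-52 for APCDD1 (limma, adjusted). They thus do not rest on a gene's own pairs alone. Array weights, scalings, pseudocounts, filters and left-out libraries were the other alternatives.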

Additional observations from a re-analysis of the deposited data

How the results depend on the processing

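Over the 19 alternatives, none of the 7 feedback genes changed direction. Of the called genes, NKD1 passed in all 18 that held it, APCDD1 in 18 of 19 and AXIN2 in 16 of 19. APCDD1 did not pass on its own spread (log2 fold change 2.67), nor AXIN2 with non-target replicates 2 and 3 as 1 sample (0.80). Array weights called all 7, but also 5269 of all 13092 tested genes, against 1597 in the main fit. They gave NOTUM at -0.46, RNF43 at -0.32, ZNRF3 at 0.61 and SP5 at 0.61. SP5 also passed with quantile normalization (0.77, adjusted p = 0.0401), a replicate block (0.61) and without both replicate 1 libraries (0.73). The block changed no other call of the 7 genes. Leaving out 1 library gave log2 fold changes of 0.74 to 0.88 for AXIN2 and 0.48 to 0.79 for SP5. These fits called 2 to 4 of the 7, beside 911 to 1970 of the 13092 tested genes. Over all alternatives the adjusted p ran from 8.23e-07 to 0.0575 for AXIN2 and from 0.000375 to 0.193 for SP5.

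Of all genes, 1597 passed, against 865 with a mean of at least 5 FPKM, 5269 with array weights, 715 on each gene's own spread, 3309 with a replicate block, 945 with non-target replicates 2 and 3 as 1 sample and 911 to 1970 without 1 library. Of 133 counts for the 7 other lists, 52 moved by more than 1.5 times. NKD1, NOTUM, ZNRF3 and SP5 had means under 5 FPKM, so that filter gave no value for them. The order of mean levels was the same in TPM. The cause of these differences was not tested. SP5 had the fewest estimated fragments of the 7 genes.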
